A study of Homo sapiens with 16 samples.

Results

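The RNA that poly(A)-binding protein (PABP) held in U251 cells was sequenced (RIPSeq) in cells given either a mimic of miR-137 or a control mimic. These are 4 of the 16 libraries of the series, taken by their labels: 2 miR-137 and 2 control transfections of U251, an established human glioblastoma line, all given 25 nM of mimic and collected at 48 h. A mimic is a synthetic small RNA with the sequence of a mature miRNA, and cells of both groups were grown in serum-containing medium. The comparison asks which transcripts leave or gain PABP-bound RNA when miR-137 is supplied. Total RNA of U251 (RNASeq) and PABP-bound RNA of U343, another glioblastoma line, treated with the same mimics, were used for comparison with 4 libraries each. The U343 libraries were made with another cDNA kit, so cell line and preparation cannot be told apart.

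A miRNA is loaded onto an Argonaute protein and pairs with messenger RNAs mainly through its seed, bases 2 to 8 from its 5′ end. The silencing complex binds PABP through its GW182 subunit and recruits deadenylases, so a targeted transcript tends to lose its poly(A) tail and PABP before it decays, which is the rationale for an immunoprecipitation of PABP. miR-137 is abundant in neurons, is low in glioblastoma and is known to reduce proliferation in these cells. The mature miR-137 strand is shown because its seed sets which transcripts it can pair with, and those transcripts are given here only through the list of published targets (RefSeq, GRCh38.p14, chr1:98046091-98046113, minus strand, with the seed in capitals).
hsa-miR-137-3p: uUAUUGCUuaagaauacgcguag

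The MIR137 gene itself (hg18, chr1:98284215-98284315) had 5 and 2 reads in the controls and 0 and 2 in the miR-137 libraries. Random-primed libraries of this kind are not made to capture RNAs as short as a mature miRNA, so these reads give no check of the mimic.

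Over 20314 genes, control 1 had 22359794 counted reads and control 2 had 30731476, with 25286819 and 26705825 in miR-137 replicates 1 and 2. The miR-137 libraries were near copies of each other, with a median difference of 0.0645 on the log2 scale over the 12278 genes at 1 CPM or more (CPM being reads scaled to a common library depth), although their mean chi-square of 2.17 per gene exceeded sampling noise. The controls stood far apart, with a median difference of 0.645 and a mean chi-square of 181 per gene. Of the 14087 genes with enough reads to be tested, 2553 were over 2-fold higher in control 2 than in control 1 and 1968 over 2-fold lower. The difference went in part with the span of the gene in the genome, with a Pearson correlation of 0.278 with log span (Spearman 0.319). Its median was -0.50 on the log2 scale in the fifth of genes with the shortest spans and 0.43 in the fifth with the longest. Every gene is therefore given against each control separately, as the log2 ratio of the mean of the miR-137 libraries to that control after scaling by TMM (a factor that sets most genes to no change). Reads on genes of olfactory receptors, a family of odour sensors of the nose, summed to 49.1 CPM in control 1, 12.2 in control 2 and 19.6 and 17.4 in the miR-137 libraries. A gene's reads in an immunoprecipitate reflect both its abundance and the share held by PABP, which cannot be told apart in these 4 libraries alone. The part of the control difference in any result was not tested beyond these values.

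Of the 11 glial markers listed, some were well covered and others were sparse or near absent, so they do not establish the identity of the cells. VIM, an intermediate filament of astrocytes and mesenchymal cells, had 152808 and 224847 reads in the controls and 110222 and 116227 with miR-137. CD44, an adhesion receptor, had 91810 and 198706 against 91638 and 97472. NES, a filament of neural precursors, had 12485 and 7337 against 5661 and 5860. GFAP, the astrocyte filament, was sparse at 287 and 194 against 119 and 121 reads, and OLIG2 and ALDH1L1 had at most 7 reads in any library. None of the 9 glial markers tested passed edgeR's test or DESeq2's, and 3 were lower at unadjusted p under 0.05 in edgeR.

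With the miR-137 mimic 37 genes were lower and 133 higher in PABP-bound RNA (edgeR's quasi-likelihood test with Benjamini-Hochberg adjustment, adjusted p under 0.05). That is 0.263% and 0.944% of the 14087 genes tested and 1.21% together. All 37 and all 133 changed in the same direction in each of the 4 pairings of either control with either miR-137 library, and each was over 2-fold away from both controls. The rises were much larger: 82 of them exceeded 8-fold against both controls and 31 exceeded 32-fold, against 6 and 0 of the falls. The median fitted log2 fold change was 3.78 among the rises and -2.59 among the falls. Unadjusted, 1429 genes were lower and 1399 higher at p under 0.05. Without miR-137 replicate 1 the test called 8 lower and 133 higher, among them 6 of the 37 and 102 of the 133, and without miR-137 replicate 2 it called 9 and 135, among them 6 and 100. Without control 1 it called 5052 genes lower and 4689 higher (35.3% and 32.8% of those tested) and without control 2 it called 5366 and 6304 (34.2% and 40.2%). In a fit without a control the spread comes from the miR-137 pair alone and the lone control is assumed to vary as little, so a call there is no support for a gene.

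By size alone, 510 genes (3.62%) lay over 2-fold below both controls and 750 (5.32%) over 2-fold above both. A further 1268 genes were over 2-fold below control 1 alone and 613 below control 2 alone, while 1878 were above control 1 alone and 870 above control 2 alone. For 78 genes (0.554%) the direction depended on the control, 65 being below control 1 and above control 2 and 13 the reverse. The remaining 8120 genes were within 2-fold of both controls. The pairwise rule of the study's methods is a Fisher's exact test of reads in all 4 pairs. In each pair the odds ratio had to exceed 2 and the adjusted p to be below 0.001. It called 302 of all 20314 genes lower (1.49%). The study states the rule for falls only, and its mirror for rises, added here, called 704 higher (3.47%). Both compare libraries, not conditions.

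**Figure D1:**
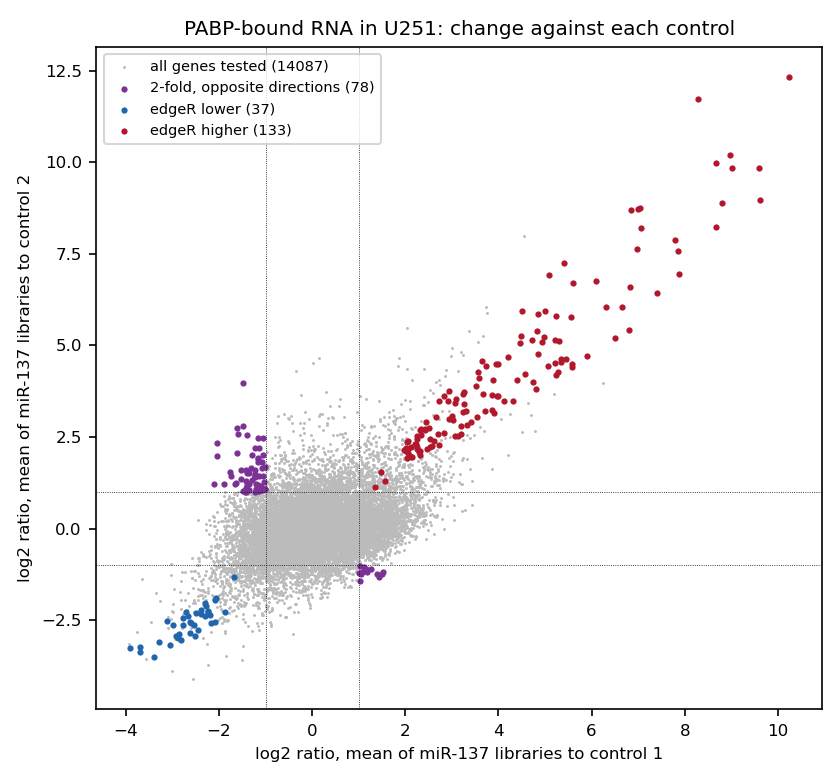
Each point is 1 of 14087 genes, with its log2 ratio of the mean miR-137 library to control 1 on the x axis and to control 2 on the y axis, 0.5 reads being added before the ratio. The 133 genes called higher (red) run along the diagonal to above 10, the 37 called lower (blue) reach about -4, and the 78 genes with opposite directions (purple) lie in the other corners.

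The 12 largest falls against both controls included enzymes, transporters and surface proteins. These and the 12 largest rises had to change in the same direction in all 4 pairs to be named. That their groups do not overlap is therefore a condition of the choice and no added support. IMPA2, an inositol monophosphatase (hg18, chr18:11971455-12020876), had 695 and 896 reads in the controls and 77 and 72 with miR-137. Its log2 ratios were -3.40 to control 1 and -3.51 to control 2, with a fitted log2 fold change of -3.47 ± 0.27 (SE, n = 2 libraries per group) and an edgeR adjusted p of 0.0254, and its groups were far apart. The reads of SLC43A2, a carrier of large neutral amino acids, were 342 and 324 in the controls and 29 and 30 with miR-137 (adjusted p 0.0256). SLC1A5, the main glutamine importer, had 13791 and 12929 against 1949 and 2039 reads (-2.98 and -2.63 on the log2 scale, adjusted p 0.0270). Neither transporter had overlapping groups, and the libraries within a group lay close together.

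AKT2, a serine/threonine kinase of insulin and growth factor signalling (hg18, chr19:45428064-45483105), was the only glioma oncogene named by the study that passed the test. Its reads were 6279 and 8743 in the controls and 956 and 1089 in the miR-137 libraries, so the lowest control stood well above the highest miR-137 library. The log2 ratios were -2.81 and -3.03 and the fitted log2 fold change -2.93 ± 0.24 (SE, n = 2), with an edgeR adjusted p of 0.0266. The call was lost without miR-137 replicate 1 (adjusted p 0.160), without replicate 2 (0.114) and with the filter of 1 read in any library (0.0655). MIR641 overlaps 99 bases of the gene's span. Reads were counted on a merged transcript, and whether any of MIR641 entered the AKT2 count was not tested.

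NT5DC2, a nucleotidase-domain protein, was among the most abundant of the falls, at 13476 and 10362 reads in the controls against 942 and 1121. Its log2 ratios were -3.90 and -3.26 (adjusted p 0.0306), and 127 bases of its span overlap STAB1. CDH3, P-cadherin, fell from 749 and 794 to 89 and 86 reads. LOXL4, a lysyl oxidase that cross-links collagen, fell from 1117 and 1332 to 158 and 177 reads. PADI2, which converts arginine in proteins to citrulline, fell from 7825 and 10929 to 1438 and 1461 reads. In each of these the lower control was well above the higher miR-137 library, and the edgeR adjusted p was 0.0258 for CDH3 and 0.0270 for LOXL4 and PADI2.

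The remaining 4 of these 12 spanned a wide range of levels. CTSF, the lysosomal protease cathepsin F, was the sparsest at 119 and 103 reads against 9 and 11 (adjusted p 0.0381). RNF157, a ubiquitin ligase, had 374 and 491 against 47 and 56 (adjusted p 0.0270), and CMTM4, a membrane protein known to stabilise PD-L1, had 1963 and 2511 against 297 and 312 (adjusted p 0.0270). TMEM218, a transmembrane protein of the cilium, had 373 and 454 against 48 and 70 reads (adjusted p 0.0377). Controls and miR-137 libraries were apart for all 4. The smallest fall that passed was ACTG1, cytoplasmic gamma actin, chosen here after its values were seen, with 270514 and 252777 reads against 92294 and 101239 and a fitted log2 fold change of -1.51 (adjusted p 0.0425).

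The rises were led by genes of the interferon response. Cells that sense double-stranded RNA secrete type I and type III interferons, and these act through JAK kinases and transcription factors such as IRF9 to switch on antiviral effectors. What set off these rises was not tested. An effect of the miR-137 sequence and a response to this mimic as an RNA cannot be told apart in this design. RSAD2, which encodes viperin, a radical SAM enzyme that blocks viral RNA synthesis (hg18, chr2:6935247-6955814), had 19 and 5 reads in the controls and 26552 and 27259 in the miR-137 libraries. The ratio was 1239 to control 1 (exact 95% interval 793 to 2058) and 5640 to control 2 (2417 to 17372), where intervals cover counting error only. Its fitted log2 fold change was 11.01 ± 0.80 (SE, n = 2) with an edgeR adjusted p of 0.0239. The ratio to control 2 rests on 5 reads, and groups that do not overlap were a condition for naming this gene.

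Most of the 12 largest rises encode proteins that act on viral RNA or its entry into cells. OAS1, an oligoadenylate synthetase that activates RNase L, had 10 reads in either control and 8848 and 9616 with miR-137. OAS2 of the same family had 18 and 9 against 10465 and 10900, and OASL, a relative without that enzyme activity, had 37 and 60 against 16776 and 17899 reads. The edgeR adjusted p was 0.00700 for OAS1 and OASL and 0.0165 for OAS2, and their groups did not overlap. IFIT1, which binds RNA whose cap lacks the host's methyl marks, had 60 and 114 reads against 52991 and 56016. IFIT2 had 36 and 52 against 9540 and 9782. MX2, a dynamin-like GTPase that restricts viruses at the nucleus, had 31 and 35 against 15654 and 16416 reads. The adjusted p was 0.00700 for IFIT1, IFIT2 and MX2, and in all 6 genes the controls were near 0 beside the miR-137 libraries, which differed little from each other.

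IFITM1, a membrane protein that hinders viral fusion, had 55 and 37 reads in the controls and 30049 and 35282 with miR-137 (adjusted p 0.0116). IFI27, an interferon-induced mitochondrial protein, had 46 and 52 against 11100 and 12518 (adjusted p 0.00700). XAF1, an antagonist of the apoptosis inhibitor XIAP, had 15 and 7 against 7151 and 7209 reads (adjusted p 0.0192). Neither group of any of these reached the other. The chemokines CXCL10 and CCL5, which attract T cells, completed the list. CXCL10 had 4 and 0 reads in the controls and 1567 and 1659 with miR-137, a ratio of 353 to control 1 (exact 95% interval 138 to 1295) and at least 564-fold higher than control 2 when that control is set to a floor of 3 reads (adjusted p 0.0321), and its span lies within ART3. CCL5 had 6 and 3 reads against 877 and 1099, a ratio of 144 to control 1 (66.1 to 393) and of 345 to control 2 (118 to 1675), with an adjusted p of 0.0195.

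**Figure D2:**
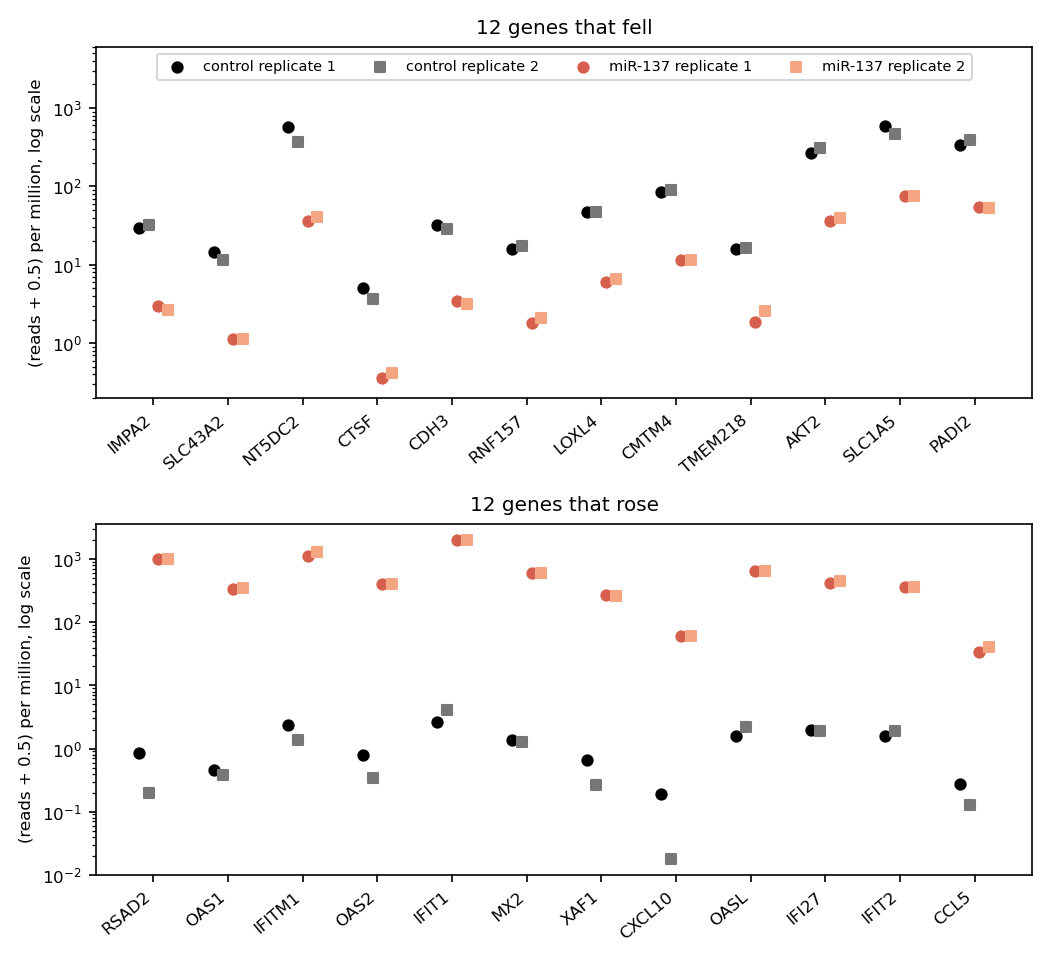
Levels of the 12 largest falls (top) and the 12 largest rises (bottom) in each of the 4 libraries, in CPM on a log axis after adding 0.5 reads. Control points (black and grey) lie above the miR-137 points (red and orange) for every fall and below them for every rise, and CXCL10 in control 2 is plotted at its added 0.5 reads because it had none.

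The promoters of IFITM1, IFIT1 and CXCL10 are printed because these genes rose together and each holds the letters GAAA followed by any 2 bases and GAAA again, a core of the interferon-stimulated response element (ISRE) bound by STAT and IRF factors. They are RefSeq sequences of GRCh38.p14, from 250 bases before to 50 bases after the start, given on the strand of the gene, with matches on either strand in capitals. IFI27 held the motif too, while RSAD2, OAS1 and XAF1 did not, and the other 5 of the 12 rises had no promoter in the table, so no share over the 12 is read. Of the 12 falls 10 had a promoter and 0 held it. It was held by 996 of all 27305 promoters, or 3.65%. Only 94 of the 133 raised genes had a promoter entry, too few for a share over them to be read, and a match is a run of letters, not a measured site.
IFITM1 (chr11:313790-314089, plus strand, 2 matches): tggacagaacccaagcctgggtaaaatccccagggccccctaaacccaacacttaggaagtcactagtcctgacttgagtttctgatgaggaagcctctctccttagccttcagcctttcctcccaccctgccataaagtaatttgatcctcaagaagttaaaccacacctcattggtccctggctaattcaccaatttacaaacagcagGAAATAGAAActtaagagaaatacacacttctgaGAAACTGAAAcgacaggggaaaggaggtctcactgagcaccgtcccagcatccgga
IFIT1 (chr10:89392373-89392672, plus strand, 2 matches on the opposite strand): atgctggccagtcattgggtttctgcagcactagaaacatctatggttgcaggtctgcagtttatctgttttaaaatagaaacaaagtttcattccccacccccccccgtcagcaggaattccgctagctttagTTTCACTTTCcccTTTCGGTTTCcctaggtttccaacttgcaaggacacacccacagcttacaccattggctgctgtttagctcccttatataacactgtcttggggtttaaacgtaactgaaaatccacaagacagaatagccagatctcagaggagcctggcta
CXCL10 (chr4:76023448-76023747, minus strand, 1 match): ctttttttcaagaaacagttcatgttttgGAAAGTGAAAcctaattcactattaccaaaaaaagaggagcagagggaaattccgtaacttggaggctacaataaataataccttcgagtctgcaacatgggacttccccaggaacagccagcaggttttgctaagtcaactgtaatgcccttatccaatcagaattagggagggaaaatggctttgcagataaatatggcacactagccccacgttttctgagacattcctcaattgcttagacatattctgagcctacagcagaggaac

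Taken by role, 3 of the 9 interferon ligand genes had enough reads to be tested and 2 rose. For this and every list below, edgeR called 0.263% of all 14087 genes tested lower and 0.944% higher. By size, 3.62% of all genes lay over 2-fold below and 5.32% above both controls. At unadjusted p under 0.05 in edgeR, 1429 of the 14087 were lower and 1399 higher, and DESeq2 called 3.79% lower and 4.18% higher. IFNB1, interferon beta, had 1 and 3 reads in the controls and 299 and 276 with miR-137, a ratio of 251.5 to control 1 (exact 95% interval 45.0 to 9950) and of 100.4 to control 2 (34.2 to 489), with an adjusted p of 0.0192. IL29, interferon lambda 1, had 4 and 1 reads against 193 and 242, a ratio of 47.6 to control 1 (18.4 to 175) and of 228 to control 2 (40.7 to 9025), with an adjusted p of 0.0283. These ratios rest on 1 to 4 control reads. Of the 11 sensors of viral RNA and their kinases 3 rose and 6 were over 2-fold above both controls. The sensor DDX58 (RIG-I) had 178 and 520 reads against 18382 and 18369 (log2 ratios 6.49 and 5.21, adjusted p 0.0340), and the endosomal receptor TLR3 had 24 and 60 against 1020 and 1098 (adjusted p 0.0340). DHX58 (LGP2), a regulator of RIG-I, had 103 and 95 against 1284 and 1435 reads (adjusted p 0.0256). Ligands and sensors that passed showed no overlap between groups.

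Among 19 receptors and signalling genes, IRF9 and STAT2, partners in the factor that binds ISREs, rose and 6 genes were over 2-fold above both controls. IRF9 had 218 and 195 reads in the controls against 6313 and 6848 (log2 ratios 4.72 and 5.14, adjusted p 0.0192), and STAT2 had 631 and 876 against 4354 and 4461 (2.61 and 2.40, adjusted p 0.0343). In both genes the controls lay far below the miR-137 libraries. Of the receptor chains themselves, IFNAR1 had log2 ratios of 0.47 and -0.62 and IFNAR2 of -0.24 and 0.12, and both were chosen after their values were seen.

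The antiviral effectors rose together. All 40 on the list were tested, 34 passed the test as higher and 39 lay over 2-fold above both controls, beside 0.944% and 5.32% of all genes tested. The list was chosen with earlier results of these data known, so its counts are a description and no independent evidence. The log2 ratios ran from 0.55 for LGALS3BP to 12.32 for RSAD2. Their summed level was 1782 and 1435 CPM in the controls and 26294 and 27758 with miR-137. IFI6, an antiviral protein of the endoplasmic reticulum, was the most abundant member named by the rule, at 1551 and 2246 reads against 126908 and 156273 (log2 ratios 6.32 and 6.04, adjusted p 0.00700). The median log2 ratio of the list was 5.51 to control 1 and 4.93 to control 2, where all genes tested had 0.04 and 0.03. Without either miR-137 library, where the spread comes from the controls alone, 38 passed, beside 0.850% and 0.864% of all genes called higher in those fits.

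Of the 10 genes of MHC class I antigen presentation 2 rose and 6 were over 2-fold above both controls. B2M, the light chain of class I molecules, had 50345 and 72440 reads against 160839 and 182195 (log2 ratios 1.57 and 1.31, adjusted p 0.0421), and NLRC5, its transcriptional activator, had 254 and 230 against 1800 and 1850 (adjusted p 0.0354). These 5 interferon lists, with 83 genes tested, held 43 of the 133 genes called higher, and 90 lay outside them. The lists were chosen with earlier results of these data known, so these counts are no independent evidence. Among the 22 chemokines and cytokines tested 4 rose (CXCL10, CCL5, CXCL11, another ligand of the CXCL10 receptor, and IL1B), while 7 lay over 2-fold above and 5 over 2-fold below both controls. CXCL11 had 2 and 1 reads against 75 and 89, a ratio of 35.9 to control 1 (9.77 to 299) and of 85.9 to control 2 (15.2 to 3415), with an adjusted p of 0.0315, and its span lies within ART3 too. IL1B, interleukin-1 beta, had 59 and 80 reads against 288 and 310 (adjusted p 0.0483). WARS, the tryptophanyl-tRNA synthetase and the only one of 33 aminoacyl-tRNA synthetases that passed, had 3591 and 6249 against 33112 and 35430 reads (adjusted p 0.0337).

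**Figure D3:**
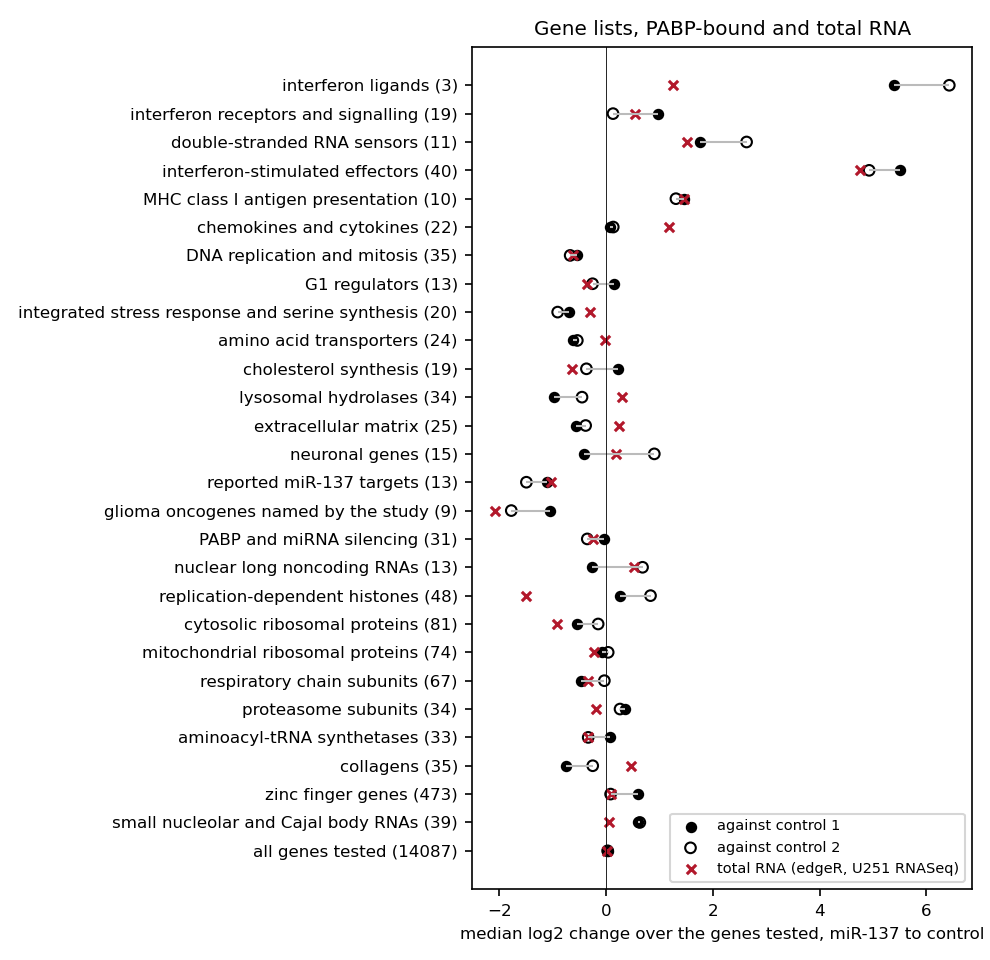
Median log2 change of each gene list against control 1 (filled) and control 2 (open) in PABP-bound RNA, with the median edgeR log2 fold change in total RNA (red cross), the number of genes tested in brackets. Effectors lie near 5 in all 3, glioma oncogenes and reported targets lie below -1, and the replication-dependent histones are above 0 in PABP-bound RNA and at -1.49 in total RNA.

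Transcripts published as miR-137 targets lay mostly below the controls. Of 13 tested none passed edgeR's test (8 were lower and 0 higher at unadjusted p under 0.05), and 7 were over 2-fold below both controls (3.62% of all genes were). The median log2 ratio was -1.10 to control 1 and -1.49 to control 2. By DESeq2 8 of the 13 passed as lower (3.79% of all genes did), and without either miR-137 library edgeR called only CDK6 lower. Without control 1 edgeR called 12 lower and 1 higher and without control 2 it called 9 lower and 4 higher, in the fits that take their spread from the miR-137 pair and call most genes. CDK6, a cyclin-dependent kinase of the G1 to S transition and a well-studied miR-137 target, had 7414 and 25912 reads in the controls against 1417 and 1462. Its log2 ratios were -2.56 and -4.10 (adjusted p 0.0798), so both miR-137 libraries lay far below either control, while the controls were themselves far apart. CDC42, a small GTPase of cell polarity and migration, had 5132 and 13241 reads against 2177 and 2137 (-1.44 and -2.55, adjusted p 0.109).

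MSI1, an RNA-binding protein of neural stem cells, had 431 and 377 reads against 54 and 90 (-2.77 and -2.32, adjusted p 0.0644). ESRRA, an orphan nuclear receptor that drives mitochondrial genes, had 1283 and 1006 against 202 and 214 (-2.82 and -2.20, adjusted p 0.0559), and 46 bases of its span overlap TRMT112. CTBP1, a transcriptional corepressor, had 7068 and 8595 against 3023 and 3243 (-1.37 and -1.39, adjusted p 0.0708). For these 3 both controls lay above both miR-137 libraries. Of the histone demethylases, KDM5B had log2 ratios of -1.10 and -1.49 and KDM1A (LSD1) of -0.90 and -1.36. GLIPR1 had 5429 and 12946 reads against 2708 and 2833 (-1.16 and -2.16), with part of its span shared with KRR1.

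The other reported targets did not lie below both controls by as much. EZH2, the H3K27 methyltransferase of Polycomb, had log2 ratios of -0.58 and -0.53. MIB1, a ubiquitin ligase of the Notch pathway, was at 974 and 4955 reads in the controls and 1335 and 1254 with miR-137, inside the range of the controls (0.22 and -1.87). CSE1L, a nuclear export factor, was also inside it at 2656 and 10566 against 5085 and 5094 (0.75 and -0.99), as was MITF, the melanocyte transcription factor, at 112 and 259 against 173 and 178. The direction of MITF turned without scaling. PTGS2, the inducible cyclooxygenase, was above both controls at 61 and 189 against 256 and 244 reads (1.83 and 0.47, adjusted p 0.351).

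The 9 glioma oncogenes, of which CDK6, CDC42 and MSI1 are also on the list of reported targets, were picked by the study on these samples, so their direction is no independent evidence. AKT2 passed, 5 lay over 2-fold below both controls, and the median log2 ratios were -1.06 and -1.78. By DESeq2 5 passed as lower. Without either miR-137 library AKT2 no longer passed and CDK6 did (adjusted p 0.00395 and 0.00417). Without control 1 edgeR called all 9 lower and without control 2 it called 5 lower and 2 higher, where most of all genes were called too. Beside AKT2, CDK6, CDC42 and MSI1 given above, YBX1, a cold-shock RNA-binding protein, had 3099 and 6118 reads in the controls against 1650 and 1759 (-1.06 and -1.78, adjusted p 0.123). KIT, a receptor tyrosine kinase, was sparse at 46 and 103 against 45 and 34 reads, with control 1 barely above the miR-137 libraries. MTDH, an oncoprotein of NF-kappaB signalling, had 8049 and 26887 against 8364 and 8878 reads, so that it was -0.09 from control 1 and -1.57 from control 2.

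TGFB2, a growth factor that promotes glioma invasion, was above control 1 and below control 2, at 3106 and 10179 against 4497 and 4601 reads (0.36 and -1.09). CD24, a surface glycoprotein that shares sequence with near-identical copies, also lay between the controls at 1859 and 5136 against 2654 and 2893 (0.38 and -0.82), and its reads may be split among the copies. PABPC1, the main cytoplasmic PABP, had 24965 and 34858 reads in the controls against 20425 and 21642 (-0.44 and -0.66, adjusted p 0.200), and PABPC4 had log2 ratios of -0.02 and -0.38. Of 31 genes of PABP and miRNA silencing tested 0 passed edgeR's test and 0 were over 2-fold away from both controls, while 4 were lower and 1 higher at unadjusted p under 0.05 and DESeq2 called 1 lower. Over all 14087 genes tested, 1429 were lower and 1399 higher at unadjusted p under 0.05 in edgeR.

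**Figure D4:**
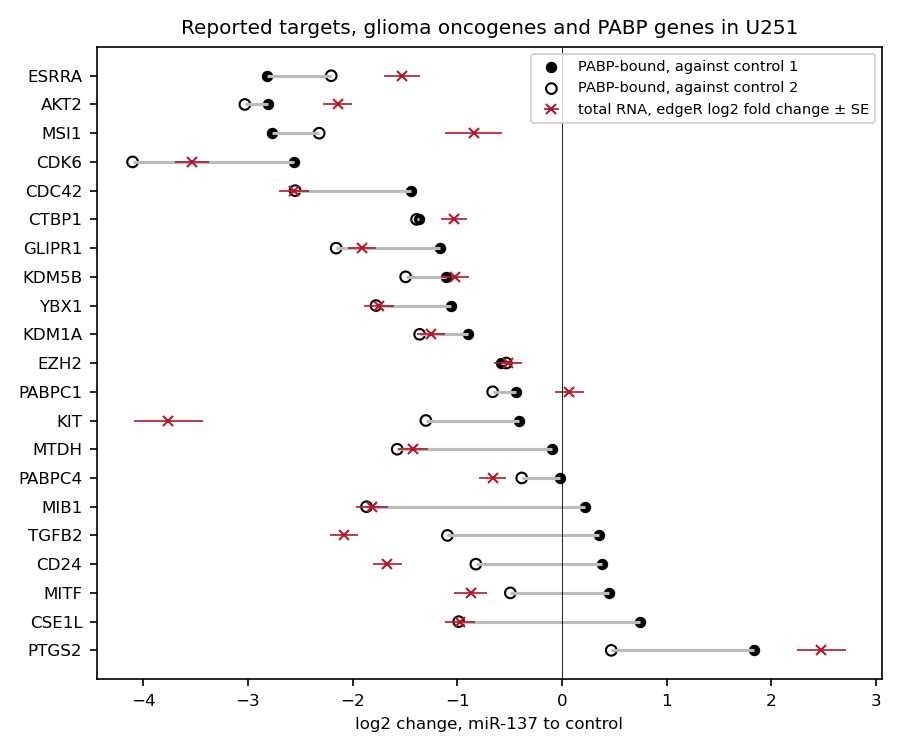
Log2 change of the reported targets, glioma oncogenes and PABP genes in U251, in PABP-bound RNA against control 1 (filled) and control 2 (open) and in total RNA (red cross with its SE). The distance between the filled and open points is the distance between the controls, and AKT2, CTBP1 and EZH2 have both points close together, while MIB1, TGFB2 and CSE1L straddle 0.

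Several lists had medians below 0 against both controls, among them DNA replication and mitosis and the integrated stress response with serine synthesis. Others were the lysosomal hydrolases (-0.98 and -0.45), amino acid transporters (-0.62 and -0.54), extracellular matrix (-0.56 and -0.38) and collagens (-0.75 and -0.25). Of 35 genes of DNA replication and mitosis 1 passed and 6 were over 2-fold below both controls, with median log2 ratios of -0.54 and -0.67 and none over 2-fold above both. LMNB1, lamin B1 of the nuclear envelope, passed with 3289 and 4010 reads against 813 and 792 (-2.23 and -2.25, adjusted p 0.0392). Among the other 5 over 2-fold below both, and named after their values were seen, were the S-phase factors E2F1 and E2F2, cyclin E1 (CCNE1) and the cell-cycle transcription factor MYBL2. E2F1 had 3368 and 2115 against 482 and 483 reads (adjusted p 0.0731), and CCNE1 had 958 and 981 against 231 and 283 (adjusted p 0.0565). Without either miR-137 library edgeR called none of the 35. Without control 1 it called 32 lower and 1 higher and without control 2 it called 21 lower and 10 higher, beside 35.3% and 34.2% of all genes called lower in those fits. Of 13 G1 regulators none passed (1 lower and 1 higher at unadjusted p under 0.05), and CDK6 alone was over 2-fold below both and lower in DESeq2.

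Of 24 amino acid transporters the SLC43A2 and SLC1A5 falls passed, and 5 lay over 2-fold below both controls and 1 above both. None of the 20 genes of the integrated stress response and serine synthesis passed edgeR's test, but 9 were lower and 0 higher at unadjusted p under 0.05, DESeq2 called 7 lower, and 5 were over 2-fold below both controls and 0 above, with medians of -0.69 and -0.91. The best covered of these, PHGDH, the first enzyme of serine synthesis, had 10627 and 8763 reads against 2968 and 3301 (-1.96 and -1.42, adjusted p 0.0750, chosen after its values were seen). Of 34 lysosomal hydrolases CTSF and CTSL2 (cathepsin V) fell and CTSS (cathepsin S) rose, with 6 over 2-fold below and 1 above both controls. CTSL2 had 398 and 392 reads against 67 and 76 (adjusted p 0.0389), and CTSS had 58 and 59 against 377 and 383 (adjusted p 0.0340). Each of these cathepsins had controls that lay close together and groups that did not overlap.

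Among 25 extracellular matrix genes LOXL4 fell, 9 lay over 2-fold below both controls and 0 above both. Of 35 collagens none passed edgeR's test, with 6 below and 2 above, while 13 were lower and 3 higher at unadjusted p under 0.05 and DESeq2 called 8 lower. None of 19 cholesterol synthesis genes passed, with 4 lower and 2 higher at unadjusted p under 0.05 and 1 higher by DESeq2. Of 15 neuronal genes GAP43, a growth cone protein, and SNAP25, a SNARE of synaptic vesicle fusion, rose, at 258 and 305 against 1250 and 1209 reads (adjusted p 0.0481) and at 38 and 56 against 216 and 221 reads (adjusted p 0.0491). In all, 4 of the 15 lay over 2-fold above and 3 below both controls. The groups of GAP43 and SNAP25 did not overlap, but neither passed without either miR-137 library, with upper-quartile scaling or with the filter of 1 read in any library. Of the neuron markers, STMN2, SYN1 and ELAVL4 had at most 7 reads in any library.

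Marker genes of other cell types also moved, where 3.62% of all genes tested lay over 2-fold below and 5.32% above both controls. Of 22 epithelial markers 15 could be tested, CDH3 passed, and 5 lay over 2-fold below and 1 above both controls, with a summed level of 813 and 599 CPM in the controls and 422 and 445 with miR-137, while EPCAM had at most 5 reads in any library. Of 15 keratinocyte markers 9 could be tested and PADI3 passed, at 25984 and 24359 reads against 4245 and 4392 (adjusted p 0.0270), and 5 lay below and 1 above. The summed keratinocyte level was 1505 and 1193 against 290 and 286 CPM, most of it PADI3, while KRT5, KRT14 and DSG3 had at most 15 reads. Of the prostate markers SLC45A3 fell from 841 and 969 to 173 and 192 reads (adjusted p 0.0384) and ACPP rose from 12 and 13 to 129 and 144 (adjusted p 0.0282), with KLK3 at most 11 reads, and of the hematopoietic markers CD68 rose from 413 and 406 to 2332 and 2761 reads (adjusted p 0.0392) with PTPRC at most 13. The hepatic, intestinal, melanocytic, germ cell, luminal and endothelial lists had 0 calls in edgeR, while DESeq2 called 1 intestinal and 2 germ cell markers lower. The part of other cells in these changes was not tested, and in bulk RNA fewer cells of a type and less RNA per cell cannot be told apart.

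Noncoding and housekeeping classes gave few calls. Over all 14087 genes tested, edgeR called 0.263% lower and 0.944% higher, and 1429 were lower and 1399 higher at unadjusted p under 0.05. Of 48 replication-dependent histone genes tested, HIST1H2BK rose, 8 lay over 2-fold above and 0 below both controls, and the medians were 0.25 and 0.83 on the log2 scale. HIST1H2BK had 134 and 217 reads against 1037 and 993 (2.72 and 2.29, adjusted p 0.0464), and 370 bases of its span overlap HIST1H4I. Replication-dependent histone messages normally end in a stem-loop and not in a poly(A) tail. Whether the reads of HIST1H2BK, whose span was 8547 bases, came from messages of that form was not tested. Of 81 cytosolic ribosomal protein genes none passed edgeR's test, with medians of -0.55 and -0.15, while 13 were lower and 1 higher at unadjusted p under 0.05 and DESeq2 called 3 lower. The mitochondrial ribosomal proteins (74 tested), respiratory chain subunits (67), proteasome subunits (34), small nucleolar and Cajal body RNAs (39) and nuclear long noncoding RNAs (13) also gave 0 calls in edgeR. At unadjusted p under 0.05 they had, in that order, 8, 6, 1, 0 and 0 genes lower and 3, 2, 4, 5 and 3 higher, and DESeq2 called 0 lower and 1, 1, 1, 0 and 2 higher. Of 473 zinc finger genes none passed edgeR's test (12 lower and 33 higher at unadjusted p under 0.05, 3 and 9 by DESeq2), but 168 were over 2-fold above control 1 and 21 above control 2. Over all 14087 genes tested, 2641 were over 2-fold above control 1 and 1685 above control 2.

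For the 78 genes of opposite direction the answer turned with the control. RPPH1, the RNA subunit of RNase P (hg18, chr14:19881070-19881410), had 1230 and 194 reads in the controls and 555 and 515 with miR-137, so that its log2 ratio was -1.39 to control 1 and 1.53 to control 2. NPDC1 had 1171 and 313 against 572 and 648 (-1.13 and 1.03), and PRKCD, protein kinase C delta, just short of the 2-fold limit, had 414 and 118 against 253 and 253 (-0.90 and 1.17). CDK11A, a kinase whose span is shared with CDK11B and SLC35E2, had 117 and 26 against 53 and 63 reads. On the other side, DEPDC1, a mitotic protein, had 722 and 5889 against 2147 and 2323 (1.44 and -1.33), and CCNG1, cyclin G1, had 987 and 7366 against 2902 and 3011 (1.39 and -1.25). TFPI, the tissue factor pathway inhibitor, had 639 and 3953 against 1654 and 1658, and ZNF117 28 and 225 against 89 and 93 reads. For all 8 both miR-137 libraries lay between the controls, which a choice by opposite ratios largely fixes.

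Total RNA of the same line was set beside these changes to see which of them were seen outside the PABP fraction. In total RNA, 29.0% of 13052 genes were called lower and 28.7% higher by edgeR, so a call there is common. Of the 37 genes lower in PABP-bound RNA 36 were lower in total RNA, none was higher and TMEM143 did not pass. The fall was larger in PABP-bound RNA for 31 of the 37, with medians of -2.59 and -1.67. Both the 37 and the 133 were picked by their calls in PABP-bound RNA, which favours larger values there. These sizes therefore do not show that a change was greater in the PABP fraction. Of the 133 raised genes 128 could be tested and 122 were higher in total RNA, with medians of 3.77 and 3.51, while HIST1H2BK and TRPC4 were lower. In total RNA all 40 effectors were higher, 12 of the 13 reported targets were lower and 1 was higher, and all 9 oncogenes were lower. These lists were chosen with earlier results of the series known.

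Genes set apart by both controls or by only 1 of them were then compared with total RNA class by class. Of the genes over 2-fold below both controls 73.1% of those tested were lower in total RNA and 3.20% higher. Of those below control 2 alone 87.7% were lower and 0.663% higher, but of those below control 1 alone 23.2% were lower and 26.8% higher, beside 29.3% and 28.8% of all genes in both tests. Of the rises, 85.0% of those above both controls were higher in total RNA, 74.3% of those above control 2 alone and 23.4% of those above control 1 alone. Over 12854 genes the ratio to control 2 had a Pearson correlation of 0.768 with the total RNA change (Spearman 0.695) and the ratio to control 1 of 0.359 (0.162), where genes are not independent and both ratios share the miR-137 libraries. Of the 13 genes above control 1 and below control 2, 12 were lower in total RNA, among them DEPDC1, CCNG1 and TFPI.

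PABP-bound RNA of U343 gave a similar order, with 27.8% of 14866 genes called lower and 28.5% higher there. Of 36 falls tested 29 were lower in U343, 5 did not pass and 2, PADI2 and NOG, were higher. Of 127 rises tested 115 were higher, 11 did not pass and MPP4 was lower. Of the genes over 2-fold below both U251 controls 64.3% were lower in U343, against 73.0% of those below control 2 alone and 33.4% of those below control 1 alone. For rises the shares higher in U343 were 71.1%, 54.7% and 34.9%. The correlation over 13153 genes was 0.617 for the ratio to control 2 and 0.373 for the ratio to control 1.

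**Figure D5:**
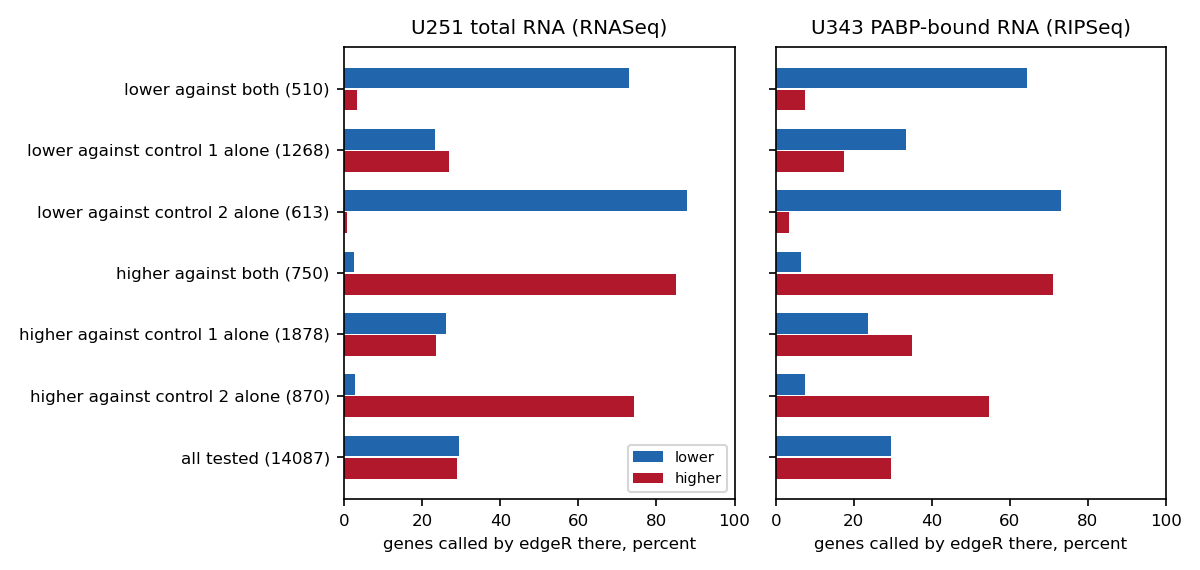
Share of genes called lower (blue) or higher (red) by edgeR in U251 total RNA and in U343 PABP-bound RNA, for classes set by the 2-fold limit against each U251 control, with the size of each class in brackets. Bars start at 0, and the classes that rest on control 1 alone show near equal blue and red bars in total RNA, while those that rest on both controls or on control 2 alone show mainly blue or mainly red.

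The change differed between PABP-bound and total RNA for 19 of 14210 genes (0.134%, edgeR's interaction test, 2688 at unadjusted p under 0.05), being more positive in PABP-bound RNA for 15 and more negative for 4. HIST1H2BK differed by 3.65 ± 0.29 (SE), as it rose in PABP-bound RNA and fell in total RNA (adjusted p 0.0179). SFRP4, a secreted Wnt antagonist, had 385 and 516 reads in the PABP controls against 191 and 189 with miR-137, a fitted log2 fold change of -1.29, while its total RNA change was -4.90 (difference 3.56 ± 0.30, adjusted p 0.0179). FST, follistatin, rose less in PABP-bound RNA, at 1025 and 1072 against 4676 and 4770 reads and 2.11 against 5.12 (difference -3.06 ± 0.28, adjusted p 0.0209). Histones were 5 of the 19 (HIST1H2BK, HIST1H2AC, HIST1H1B, HIST1H2BI and HIST1H1C), and the difference was positive for 54 of the 56 histone genes in that test and for 64 of 81 ribosomal protein genes, beside 48.0% of all 14210. In total RNA 46 of 48 histone genes were called lower, with a median of -1.49. Without control 1 the test called 2888 genes, without control 2 it called 8869 and without either miR-137 library 0.

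Between the cell lines 524 of 15959 genes (3.28%; 3353 at unadjusted p under 0.05) differed in their change of PABP-bound RNA, 195 more positive in U251 and 329 more negative. MX1, a dynamin-like antiviral GTPase, had 122 and 172 reads in the U251 controls against 15349 and 16360, a log2 fold change of 6.70, while U343 gave 0.26 (difference 6.39, adjusted p 2.54e-04). KRT75, a hair follicle keratin, was level in U251 at 2686 and 2641 against 2608 and 2809 reads and rose by 5.83 on the log2 scale in U343 (difference -5.93, adjusted p 7.16e-04). CSAG1, a cancer-testis antigen, had 604 and 613 against 996 and 1113 reads in U251, where it did not pass, and rose in U343 (difference -6.32, adjusted p 0.00373). AKT2 and LOXL4 fell more in U251, by differences of -1.69 and -2.63, and MSI1, at 0.02 in U343, by -2.65. This count was 5504 without control 1, 9113 without control 2 and 2 without either U251 miR-137 library. The joint fit shares 1 spread per gene between the lines. The SE of the difference was 0.44 for XAF1 and 0.25 for MX1, below the 0.56 and 0.27 of U251 alone. For CDH3 it was 0.36 against 0.26. These p-values can therefore understate the spread of the U251 controls. Cell line and library kit cannot be told apart in this comparison.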

How the data were processed

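PABP-bound RNA was sequenced in 4 libraries of U251 cells (RIPSeq), immunoprecipitated with a mix of PABP antibodies, depleted of ribosomal RNA, primed with random hexamers and made into libraries with the Nextera transposase kit, which does not mark strand. The authors aligned the reads with RMAP to hg18 and deposited read counts on 1 merged super-transcript per RefSeq gene, with no normalization. Reads that PCR copied cannot be told from separate molecules. The table lists 20315 lines, of which 1 repeats a symbol (SLC35E2, first line kept), leaving 20314 genes. The U251 RNASeq and U343 RIPSeq counts were used for comparison, and U343 RNASeq was not used here. For U343 the paper describes the TotalScript cDNA kit in place of the U251 cDNA steps. It also reports deeper sequencing and higher mapping rates for U343. Replicates are separate transfection labels, and p-values measure the spread between these libraries, which may be technical.

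From the counts, edgeR 4.0.16 in R 4.3.3 (TMM, filterByExpr, quasi-likelihood F test, no replicate block, Benjamini-Hochberg adjustment, threshold 0.05) tested 14087 genes in the 4 libraries, and joint fits tested the interactions with assay and cell line. The joint fits take 1 spread per gene over both experiments, so their p-values can understate the spread of the U251 PABP libraries. Log2 ratios to each control used TMM-scaled totals with 0.5 reads added. The pairwise rule for falls was that of the study, and it was mirrored here for rises. Ratios of summed reads have exact (Clopper-Pearson) 95% intervals, which cover counting error only, and a count of 0 was set to a floor of 3 reads. Alternatives were DESeq2 1.42.0, other scalings, filters, limits and prior counts, a replicate block and each library left out. List counts under these alternatives were chosen after seeing the data. The procedures were tested on simulated data.

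The genes given were the 12 falls and 12 rises with the largest smaller-of-both ratios among edgeR calls whose higher group averaged 50 reads or more, 4 genes on either side with opposite ratios, up to 4 calls per list, the reported targets, oncogenes and PABP genes, and the 3 strongest interactions of either kind. The 12 falls and 12 rises also had to change in the same direction in all 4 pairs. Members and lists were chosen with earlier results of these data known, and genes named outside this rule were chosen after their values were seen. The split of genes by seed matches was not run, since transcript sequences were not used here. RefSeq promoters and the mature miRNA came from GRCh38.p14 and were matched by symbol, while all other coordinates are those of the deposited hg18 table.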

Additional observations from a re-analysis of the deposited data

Results flagged for a closer look

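These genes differed in their change by the interaction tests of edgeR (Benjamini-Hochberg adjusted), each being a difference of log2 fold changes with U251 PABP-bound RNA taken first. Against U251 total RNA the difference was 3.65 for HIST1H2BK (adjusted p 0.0179), 3.56 for SFRP4 (0.0179) and -3.06 for FST (0.0209). HIST1H2BK rose in PABP-bound RNA and fell in total RNA, SFRP4 was at -1.29 against -4.90, and FST rose by 2.11 against 5.12 on the log2 scale.

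Against U343 PABP-bound RNA, genes with a more negative change in U251 were CDH3, a cadherin, at -3.15 (adjusted p 0.0114), RNF157 at -1.53 (0.0416), LOXL4 at -2.63 (0.00980), AKT2 at -1.69 (0.0180), PADI2 at -3.77 (0.00980) and SFRP4 at -2.81 (0.0228). PADI2 and SFRP4 had the opposite direction in U343. MSI1 at -2.65 (0.0231) and CTBP1 at -1.57 (0.0142) changed by 0.02 and 0.14 in U343. MITF was at 3.46 (0.0177), as it fell by 3.61 in U343 and lay between the U251 controls.

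Antiviral genes differed in either direction. The change was more positive in U251 for OAS1 at 2.10 (adjusted p 0.0212), IFIT1 at 2.26 (0.0153), XAF1 at 4.92 (0.00980) and MX1 at 6.39 (2.54e-04). MX2 at -2.06 (0.0142), OASL at -1.30 (0.0452) and IFI27 at -2.29 (0.0170) rose further in U343, and the change was also more positive there for KRT75 at -5.93 (7.16e-04) and CSAG1 at -6.32 (0.00373). The 2 U251 controls enter every one of these tests, and the joint fits can understate their spread. In the tests against U343, cell line and library kit cannot be told apart.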

How the results depend on the processing

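The counts of calls depended on the tool and on single libraries. DESeq2 called 534 genes lower and 589 higher, and a replicate block 273 and 529, and each of these held all 37 and all 133 genes. Keeping every gene with 1 read in any library left 5 lower and 54 higher, and upper-quartile scaling kept 28 of the 37 and 102 of the 133. Leaving out 1 library gave 8 to 5366 lower and 133 to 6304 higher, the high ends without a control, where the spread comes from the miR-137 pair alone, and the low ends without a miR-137 library, where 6 of the 37 and 100 or 102 of the 133 were kept. The interaction with assay gave 717 genes by DESeq2, 9 with upper-quartile scaling, 32 with the 1-read filter, 0 with the replicate block and 0 to 8869 without 1 library. The interaction with cell line gave 1860 by DESeq2, 140 with the replicate block and 2 to 9113 without 1 library. For replicates that share a number the correlation of deviations was -0.0833 over genes at 1 CPM or more and 0.0557 over all genes tested. The miR-137 libraries differed too little for this to show whether the numbers pair the replicates.

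By the 2-fold limit, genes of opposite direction were 135 with upper-quartile scaling, 687 with the 1-read filter (which put 807 below both controls) and 11 with a filter of 50 reads. At 1.5-fold there were 1344 below both, 1544 above both and 740 of opposite direction. Without 1 library the counts ran from 639 to 2772 below, 795 to 2983 above and 212 to 227 opposite. The pairwise rule gave 745 lower and 1370 higher at an odds ratio over 1.5, and 344 to 1372 and 750 to 2299 without 1 library. The cause of these shifts was not tested.

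The fitted log2 fold change turned positive with the replicate block for RPPH1 (0.0533), PRKCD (0.117), DEPDC1 (0.0486), CCNG1 (0.0673) and ZNF117 (0.0320), and without scaling for MITF (0.0035). Without single libraries it ran from -1.30 to 1.53 for RPPH1, -1.11 to 1.22 for CDK11A, -1.04 to 1.03 for NPDC1 and -0.81 to 1.16 for PRKCD, the highest without control 1 and the lowest without control 2. It ran the other way, highest without control 2 and lowest without control 1, from -1.33 to 1.53 for DEPDC1, -1.25 to 1.48 for CCNG1, -1.24 to 1.59 for ZNF117, -1.19 to 1.27 for TFPI, -0.82 to 0.474 for CD24, -1.10 to 0.448 for TGFB2, -1.87 to 0.308 for MIB1, -0.99 to 0.836 for CSE1L, -0.50 to 0.544 for MITF and -0.39 to 0.0713 for PABPC4. Over the named genes and alternatives, 621 values kept direction and side of the threshold, 72 lost and 56 gained the threshold. No scaling moved the median of all genes by over 0.1. The split by seed matches was not run.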
